A study of Mus musculus with 13 samples.

Results

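Genes of microglia, the resident macrophages of the brain, and of related macrophages were examined in the embryonic mouse brain at day 18.5 of gestation. The set held 38 listed genes for receptors, complement, lysosomal proteins, adaptors, transcription factors and markers of macrophages at the brain's borders. A probe set of the array counted as a member when it was annotated to exactly 1 of the listed symbols, and each gene was represented by its probe set of highest mean signal over 13 arrays. Of the 38 genes, 37 were found under the listed symbol, and Sfpi1 was found as Spi1, of which it is an older symbol. Of these, 33 passed a filter on weak probe sets, whose limit corresponds to a signal of 56.9, and were tested among 12920 genes. The array named 18193 genes in all. Hexim1, which encodes an inhibitor of the elongation factor P-TEFb, is listed but is no known marker of microglia, and it was kept as listed.

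Each array held the RNA of 1 brain, and all embryos had the same age: 6 were wild-type and 7 carried the Meg3 knock-out. The leading number of each embryo's label was taken as its litter. Litter 148 gave a single knock-out brain. Litter 219 gave 2 wild-type brains and 1 knock-out brain, and litter 238 gave 1 wild-type brain and 2 knock-out brains. Litter 250 gave 2 brains of each genotype, and litter 262 gave wild-type 6 and knock-out 7. The Meg3 allele, the strain, the sex of the embryos and which brains were handled together are not given in the sources used here. The signal of Meg3, a long noncoding RNA expressed from the maternal chromosome, was 4955 ± 1374 (SD, n = 6) in wild-type and 378 ± 106 (SD, n = 7) in knock-out brains, and the groups did not overlap.

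Some arrays stood apart before any comparison. The ratio of the 3' to the 5' control probe sets of Actb, a measure of RNA integrity and labelling, was 2.92 on wild-type 2 and 1.81 on knock-out 1, against 1.3 to 1.5 on the other 11 arrays. Both brains of litter 262 were low for many genes, as given below. Markers of neurons, radial glia and the oligodendrocyte lineage were above the filter for 5 of 5, 5 of 5 and 4 of 4 genes. No lymphocyte marker was, of 9 with a named probe set.

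Microglia descend from progenitors of the yolk sac, settle in the brain early in development and depend on signalling through the receptor Csf1r and on the transcription factors PU.1 (encoded by Spi1) and Irf8. They sense neurons through Cx3cr1, the receptor of the neuronal chemokine fractalkine, and nucleotides through P2ry12. They engulf dying cells and synapses, the latter partly tagged by complement C1q, and degrade them in lysosomes. Macrophages of the meninges, the perivascular spaces and the choroid plexus share many of these genes and add Mrc1, Lyve1, Cd163, Pf4 and Stab1.

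PU.1 is known to bind purine-rich sites called PU boxes, so the promoters of the members were searched for the PU box GAGGAA on both strands in the 250 bases before the gene's start, using the RefSeq promoter table of GRCm38.p6. A sequence was held there for 30 of the 38 members, or 78.95%, and the box was present in 17 of these 30. It was present in 23.13% of all 27025 promoters of the table. Because fewer than 80% of the members had a sequence, this comparison of shares is void and nothing is drawn from it. The 4 sequences below end at the base before the start and are shown because these genes had their lowest signals in litter 262, as described further on, and hold a box close to the start. Each gives the 100 bases before the start, 5′ to 3′ on the gene's strand, with the box or its reverse complement in capitals. A match is a description of letters and not a known binding site.
Aif1, minus strand, chr17:35176053-35176152: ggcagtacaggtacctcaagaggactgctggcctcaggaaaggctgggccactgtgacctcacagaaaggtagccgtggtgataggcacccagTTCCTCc
Laptm5, plus strand, chr4:130913216-130913315: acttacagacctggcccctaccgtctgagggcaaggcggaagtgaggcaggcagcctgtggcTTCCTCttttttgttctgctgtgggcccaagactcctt
Pf4, plus strand, chr5:90772335-90772434: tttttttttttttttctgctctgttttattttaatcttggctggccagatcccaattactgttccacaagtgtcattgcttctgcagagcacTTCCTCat
Stab1, minus strand, chr14:31168642-31168741: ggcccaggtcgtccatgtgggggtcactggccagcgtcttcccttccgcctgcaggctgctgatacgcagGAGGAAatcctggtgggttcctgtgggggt
The box began 7 bases before the start of Aif1, 8 before that of Pf4, 30 before that of Stab1 and 38 before that of Laptm5. In Aif1, Pf4 and Laptm5 it was read on the opposite strand, and in Stab1 on the gene's own strand.

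The genotype comparison asked whether brains without Meg3 differed in these genes. No member passed the threshold: 0 of 33 had an adjusted p under 0.05 by limma with Benjamini-Hochberg adjustment over all genes, where 3 of 12920 genes (0.0232%) did. At an unadjusted limma p under 0.05, 2 of 33 members, Cx3cr1 and Runx1, were higher in knock-out brains, against 1.71% of all genes, and 0 were lower, against 0.255%. No member's groups failed to overlap, as did those of 0.0774% of all genes. Changes are differences of mean log2(signal + 16), knock-out minus wild-type. The members' median log2 change was -0.05, with 16 higher and 17 lower, and the median over all genes tested was 0.04. Single members ranged from -0.21 to 0.68. Of the 33, 3 had the higher knock-out mean in 4 of 4 litters with both genotypes and 1 in 0 of 4. The share of all genes with such agreement was not computed. The adjusted p of every tested member was 1.00 by limma, and the median standard error was 0.17, against 0.15 over all genes. In RNA of brain tissue, fewer cells of a type and less RNA per cell cannot be told apart.

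The split between higher and lower members depended on the scaling of the arrays. With quantile normalization 6 members were higher and 27 lower, and 39.05% of all genes were higher. With centring on each array's median, or rescaling to a common trimmed mean, 12 were higher and 21 lower, and 44.88% and 46.75% of all genes were higher. On the deposited scale 65.45% of all genes were higher. The members' median lay below that of all genes under each of these 4 scalings, which all use the same 13 arrays. The medians were -0.05 against 0.04 as deposited and -0.15 against -0.03 with quantile normalization. They were -0.11 against -0.02 with median centring and -0.10 against -0.01 with a common trimmed mean. Among all genes at an unadjusted limma p under 0.05, the split was 221 higher and 33 lower as deposited but 50 higher and 302 lower after quantile normalization.

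**Figure D1:**
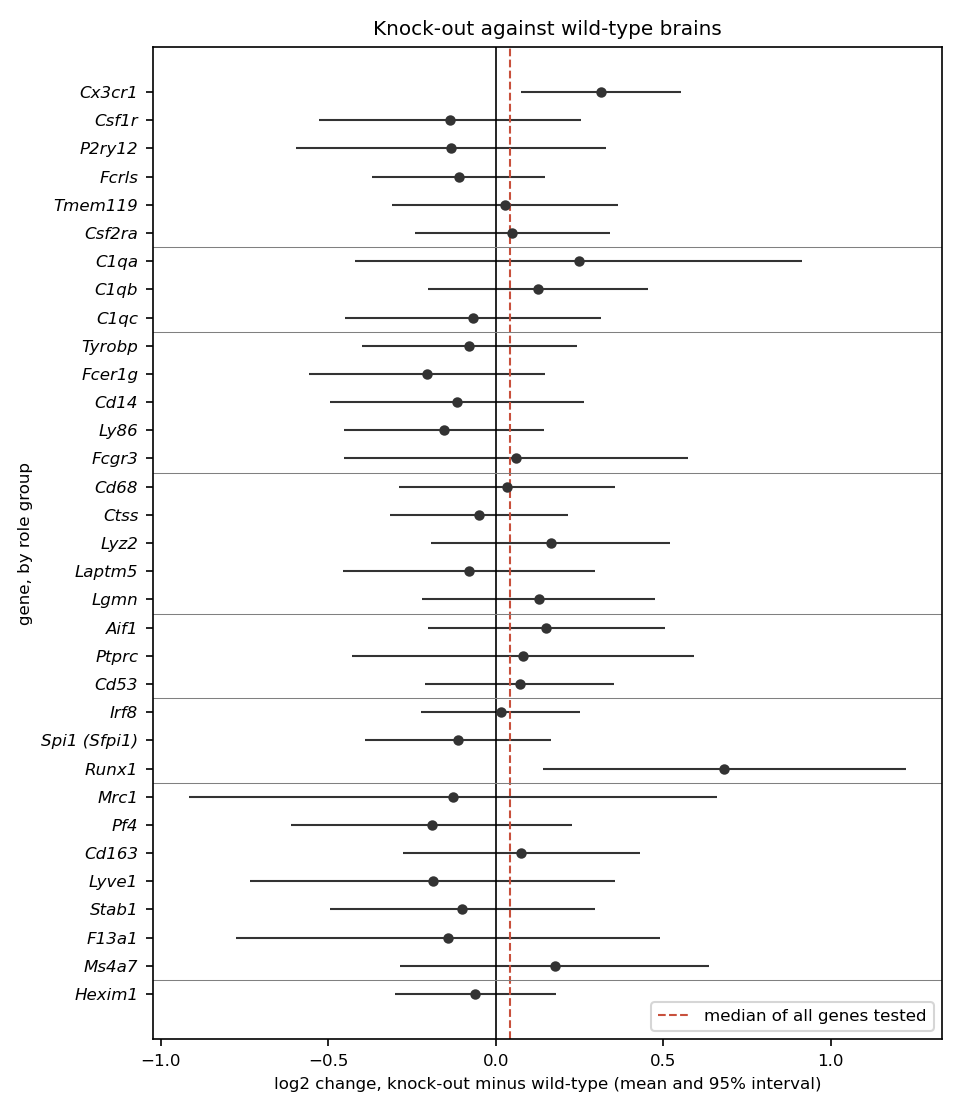
Log2 change of each of the 33 tested members, knock-out minus wild-type, with its 95% interval from limma, on the x axis and genes by role group on the y axis. The black line marks 0 and the dashed line the median of all genes tested, 0.04; only the intervals of Cx3cr1 and Runx1 leave out 0.

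Among the receptors of microglia, 3 of the 6 tested had their higher mean in knock-out brains and 3 in wild-type brains (1 and 5 under each of the other 3 scalings). Cx3cr1 (chromosome 9), the fractalkine receptor, had signals with a lowest value of 126, a median of 153 and a highest of 179 in wild-type brains, and of 143, 197 and 226 in knock-out brains. The groups overlapped only through knock-out 7 of litter 262, the low knock-out array, and the lowest of the other 6 knock-out brains (191) lay above every wild-type brain. Its log2 change was 0.31 ± 0.11 (SE; 95% interval 0.07 to 0.55), with an unadjusted limma p of 0.0135 and an exact permutation p of 0.0111, two-sided. The knock-out mean was higher in 4 of 4 litters with both genotypes, by 0.53, 0.17, 0.31 and 0.16 log2 in litters 219, 238, 250 and 262. After quantile normalization the log2 change was 0.14, and a second Cx3cr1 probe set, below the filter at a mean signal of 54.3, gave 0.33 but correlated with the member over the arrays at only 0.09.

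Fcrls, an Fc receptor-like gene used as a microglia marker, had wild-type signals of 341, 361 and 445 (lowest, median and highest) and knock-out signals of 238, 344 and 407. Knock-out 1 held the low value and wild-type 5 the high one, and the groups overlapped. Its log2 change was -0.11 ± 0.12 (SE), unadjusted limma p 0.376. The other receptors tested gave -0.14 for Csf1r, the receptor of the growth factors Csf1 and Il34, -0.13 for the nucleotide receptor P2ry12, 0.03 for Tmem119, a surface marker of microglia, and 0.05 for Csf2ra, a receptor subunit for GM-CSF, all on the log2 scale. A second Csf2ra probe set above the filter gave 0.44 ± 0.25 (SE). All 3 probe sets of Csf1r had a lower knock-out mean, from -0.26 to -0.09. The value of P2ry12 rested on knock-out 1, where the signal was 48.3 against 138 to 158 in the other knock-out brains, and without that brain its log2 change was 0.06. Siglech, a sialic acid-binding lectin, and Gpr34, a lysophospholipid receptor, were below the filter, with signals of 10 to 65.8 and of 19.2 to 108.

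C1q, the recognition molecule of the classical complement pathway, is made of chains encoded by C1qa, C1qb and C1qc, side by side on chromosome 4. The signals of C1qa were 152, 653 and 855 (lowest, median and highest) in wild-type and 463, 689 and 743 in knock-out brains. Those of C1qb were 352, 675 and 725 in wild-type and 543, 668 and 702 in knock-out brains. Wild-type 2, the array of the highest Actb ratio, was the lowest for both genes. For C1qa, wild-type 1 and 3 lay above and wild-type 6 below every knock-out brain, and for C1qb, wild-type 3 lay above and wild-type 6 below, so the knock-out range fell within the wild-type range. The log2 changes were 0.25 ± 0.31 (SE) for C1qa and 0.13 ± 0.15 for C1qb, with unadjusted limma p of 0.442 and 0.424. Without both arrays of high Actb ratio they were -0.04 and 0.02. C1qc gave -0.07 ± 0.18. The other 2 C1qb probe sets gave 0.04 and -0.02.

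The adaptors Tyrobp and Fcer1g carry the signals of receptors such as Trem2 and the Fc receptors. With the receptors of this group they had 1 higher and 4 lower means among 5 tested. Quantile normalization gave 0 and 5, while median centring and a common trimmed mean each gave 1 and 4. Fcer1g signals were 208, 307 and 399 (lowest, median and highest) in wild-type and 171, 260 and 334 in knock-out brains. The groups overlapped, and the log2 change was -0.21 ± 0.17 (SE), unadjusted limma p 0.231. Ly86, which encodes the MD-1 partner of a Toll-like receptor homologue, had wild-type signals of 272, 344 and 383 and knock-out signals of 237, 268 and 408. The lowest and the highest value of Ly86 were both in knock-out brains, and its log2 change was -0.15 ± 0.14, unadjusted limma p 0.290. Tyrobp gave -0.08, the endotoxin co-receptor Cd14 -0.11 and the Fc receptor Fcgr3 0.06. Trem2, a lipid receptor that signals through Tyrobp, was below the filter at 12.8 to 143, and its other, weaker probe set gave a log2 change of 0.35 against -0.49 for the member. Itgam, the complement receptor subunit CD11b, was below the filter at 15.9 to 48.7.

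Of the 5 lysosomal and phagocytic genes, 3 had the higher mean in knock-out and 2 in wild-type brains (2 and 3 under each of the other 3 scalings). Lyz2 (chromosome 10), the lysozyme of macrophages, had wild-type signals of 143, 205 and 232 (lowest, median and highest) and knock-out signals of 129, 254 and 292. Both lowest values were the litter 262 brains, and 4 knock-out brains lay above every wild-type brain. Its log2 change was 0.16 ± 0.17 (SE), unadjusted limma p 0.343, and its probes may also read the near-identical Lyz1. The cysteine protease Lgmn had wild-type signals of 950, 1535 and 1767 and knock-out signals of 1121, 1712 and 1915. Wild-type 2 and knock-out 1, the arrays of high Actb ratio, were the lowest of their groups for Lgmn, and its log2 change was 0.13 ± 0.16 (unadjusted limma p 0.446), higher in 4 of 4 litters. The scavenger receptor Cd68 gave 0.03, the cathepsin Ctss -0.05 and the lysosomal membrane protein Laptm5 -0.08.

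Of the genes shared with other leukocytes 3 of 3 tested had higher means on the deposited scale, but 0 of 3 after quantile normalization. With median centring or a common trimmed mean it stayed 3 of 3. Aif1, the calcium-binding protein known as Iba1, had wild-type signals of 53.0, 59.8 and 105 (lowest, median and highest) and knock-out signals of 47.8, 82.9 and 109. The tetraspanin Cd53 had wild-type signals of 133, 173 and 221 and knock-out signals of 148, 188 and 238. Both genes overlapped between the genotypes. Their log2 changes were 0.15 ± 0.17 and 0.07 ± 0.13 (SE), with unadjusted limma p of 0.376 and 0.596, and the phosphatase Ptprc (CD45) gave 0.08 ± 0.24. After quantile normalization Aif1, Cd53 and Ptprc gave -0.04, -0.10 and -0.12. Cyth4, an exchange factor of small GTPases, was below the filter at 7.52 to 72.8.

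Of the transcription factors, Runx1 (chromosome 16), which acts in blood cell development, had the largest log2 change of the tested members. Its signals were 20.02, 48.4 and 116 (lowest, median and highest) in wild-type and 61.6, 92.8 and 131 in knock-out brains. Wild-type 3, 4 and 6 lay below every knock-out brain, while wild-type 1, 2 and 5 lay among them. The log2 change was 0.68 ± 0.25 (SE; 95% interval 0.14 to 1.22), with an unadjusted limma p of 0.0170 and an exact permutation p of 0.0390, two-sided, and it was above 0 in 4 of 4 litters. A second Runx1 probe set above the filter went the other way, at -0.19 ± 0.24, and the mean of both gave 0.24. The Runx1 probe sets below the filter gave -0.24, -0.22, -0.06 and 0.05. The first of these correlated with the member over the arrays at -0.65. Spi1 had wild-type signals of 81.4, 97.5 and 133 and knock-out signals of 75.2, 97.1 and 117. The groups overlapped in part, with wild-type 3 and 5 above every knock-out brain and knock-out 4 and 5 below every wild-type brain. Its log2 change was -0.11 ± 0.13 (unadjusted limma p 0.403), and after quantile normalization it was the only member at an unadjusted p under 0.05. Irf8 gave 0.01 ± 0.11.

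The 7 markers of border macrophages had 2 higher and 5 lower means, also with median centring or a common trimmed mean (0 and 7 after quantile normalization). Beside them, 4 of 4 tested choroid plexus markers had lower means in knock-out brains, with a median log2 change of -0.56, 0 of them past the adjusted limma threshold. Knock-out 4 and knock-out 7 were the lowest arrays for these markers, and their part in the values of the border markers was not tested. Pf4, a platelet chemokine that these macrophages also express, had wild-type signals of 480, 1038 and 1194 (lowest, median and highest) and knock-out signals of 525, 840 and 981. Each group's lowest brain was that of litter 262, and the groups overlapped in the middle. Its log2 change was -0.19 ± 0.20 (SE), unadjusted limma p 0.348. Ms4a7, a membrane protein of macrophages, had wild-type signals of 46.4, 117 and 158 and knock-out signals of 75.9, 125 and 156, with the same brains lowest. It gave 0.18 ± 0.22 (unadjusted limma p 0.429). The mannose receptor Mrc1 gave -0.13 ± 0.37, the coagulation factor subunit F13a1 -0.14 ± 0.30, the hyaluronan receptor Lyve1 -0.19 ± 0.26, the scavenger receptor Stab1 -0.10 ± 0.19 and the haemoglobin scavenger receptor Cd163 0.08 ± 0.17. Mrc1 and F13a1 signals were 165 and 267 on knock-out 1 and 152 and 289 on wild-type 1, while wild-type 2, of the same litter as wild-type 1, gave 753 and 794. Hexim1 had signals of 868, 1074 and 1307 in wild-type and 890, 1035 and 1192 in knock-out brains, with a log2 change of -0.06 ± 0.11 (unadjusted limma p 0.595).

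More members passed an unadjusted threshold between litters than between genotypes. In a limma fit of genotype plus litter over the 12 arrays of the 4 litters that hold both genotypes, 16 of 33 members (48.5%) had an unadjusted F-test p under 0.05 for litter, against 12.4% of all genes. None passed after Benjamini-Hochberg adjustment over all genes, where 8 genes (0.0619%) did. The smallest p was that of Pf4, at 0.000226 (adjusted 0.0883), followed by Csf1r at 0.00176, Lyz2 at 0.00215, Stab1 at 0.00348 and Cd68 at 0.00485. Tmem119, Tyrobp, Ms4a7 and Aif1 had p from 0.00663 to 0.00940, and Lyve1, C1qc, Ly86, Laptm5, Fcgr3, Cx3cr1 and Lgmn from 0.0115 to 0.0427. By role these were 4 of 5 lysosomal genes, 4 of 7 border macrophage markers, 3 of 6 microglia receptors, 3 of 5 adaptors and receptors, 1 of 3 complement genes, 1 of 3 leukocyte genes and 0 of 3 transcription factors. The members share the arrays, so their counts are not counts of independent values.

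Litter 262 held most of the low values, a pattern noticed in these data and given without a test of its own. Its mean was the lowest of the 5 litters for 19 of 33 members (39.2% of all genes), and that of litter 148, a single brain of high Actb ratio, for 10 of 33 (26.3% of all genes). The members' median deviation from each gene's mean over 13 arrays was -0.37 (log2) in this litter, against -0.09 over all genes, and 27 of 33 members were below their mean, against 65.5% of all genes. For 13 members both brains of the litter, wild-type 6 and knock-out 7, lay below all 11 other arrays, as they did for 9.72% of all genes. These were the receptors Cx3cr1, Csf1r and Tmem119, complement C1qc, the adaptor Tyrobp, the lysosomal genes Ctss, Lyz2 and Laptm5, Aif1, and the border markers Lyve1, Ms4a7, Pf4 and Stab1. The count was 9 with median centring, 12 with a common trimmed mean and 15 with quantile normalization, against 6.37%, 10.5% and 12.93% of all genes.

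The sizes are seen in single genes. Pf4 gave 480 and 525 in the wild-type and the knock-out brain of litter 262 and 771 to 1194 in all others. Csf1r gave 884 and 841, against 1295 to 1932. Stab1 gave 127 and 137, against 182 to 291. For each of these 3 genes the litter's highest value stayed well under the lowest value elsewhere, in either genotype. Lyz2 gave 143 and 129, against 194 to 292, and Tyrobp gave 310 and 331, against 418 to 615. The other probe sets of Csf1r averaged 407 and 297 in this litter, against means of 591 and 367 over 13 arrays. Other probe sets did not all follow: those of Cx3cr1 and Ms4a7, below the filter, averaged 72.2 and 20.9 in this litter against 54.3 and 11.98 over 13 arrays. Of the other probe sets of Laptm5 above the filter, 1 averaged 103 against 99.3, 1 gave 66.5 against 77.3 and 1 gave 182 against 289, and that of Lyve1 gave 76.8 against 148. The promoters of Aif1, Laptm5, Pf4 and Stab1, 4 of these 13 members, are those printed above. Of the 13, Cx3cr1, Lyz2 and Ms4a7 had no box in the 250 bases before the start. C1qc and Ctss had 1 beginning 193 and 164 bases before it. No sequence was held for Csf1r, Lyve1, Tmem119 and Tyrobp. A link between the box and the low signals was not tested.

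**Figure D2:**
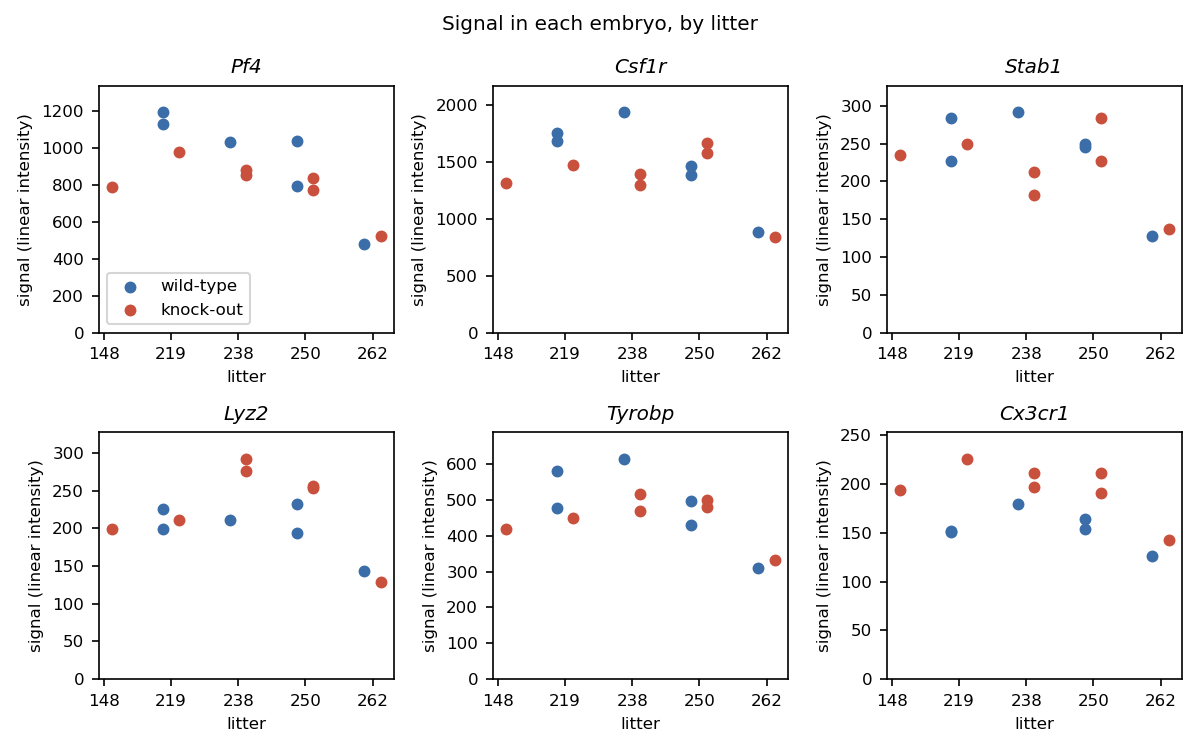
Signal (linear intensity, y axis from 0) of Pf4, Csf1r, Stab1, Lyz2, Tyrobp and Cx3cr1 in each embryo by litter (x axis), 1 point per brain, wild-type in blue and knock-out in red. The 2 brains of litter 262 lie below all others for each of the 6 genes, and the knock-out points of Cx3cr1 lie above the wild-type points within each litter.

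Not all members followed. P2ry12 was at 195 in wild-type 6, its highest signal of all 13 arrays, and at 141 in knock-out 7. Fcrls was at 356 and 352 in these brains and Lgmn at 1479 and 1712, all within the range of the other litters. Spi1, Irf8, Csf2ra and Cd14 were also within the range of the others. The mean deviation of the border macrophage markers in litter 262 was -0.64, with 7 of 7 below their mean, that of the microglia receptors -0.20 with 3 of 6, and that of the transcription factors -0.06 with 2 of 3. Without litter 262, 5 of the 33 members had an unadjusted litter p under 0.05, still a larger share than the 5.02% of all genes. Leaving out wild-type 6 or knock-out 7 gave 8 members each, against 6.99% and 6.43% of all genes.

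Litter 219 bore on the threshold. Without it, 326 genes (2.52%) passed the adjusted threshold of the litter term, 7 members among them, namely Mrc1, F13a1, C1qc, Pf4, Lyz2, Ptprc and Tmem119. Without wild-type 1 alone, 84 genes (0.65%) passed, with 3 members among them, Mrc1, F13a1 and Pf4. The adjusted p of Pf4 was 0.0378 and 0.0479 in these fits.

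**Figure D3:**
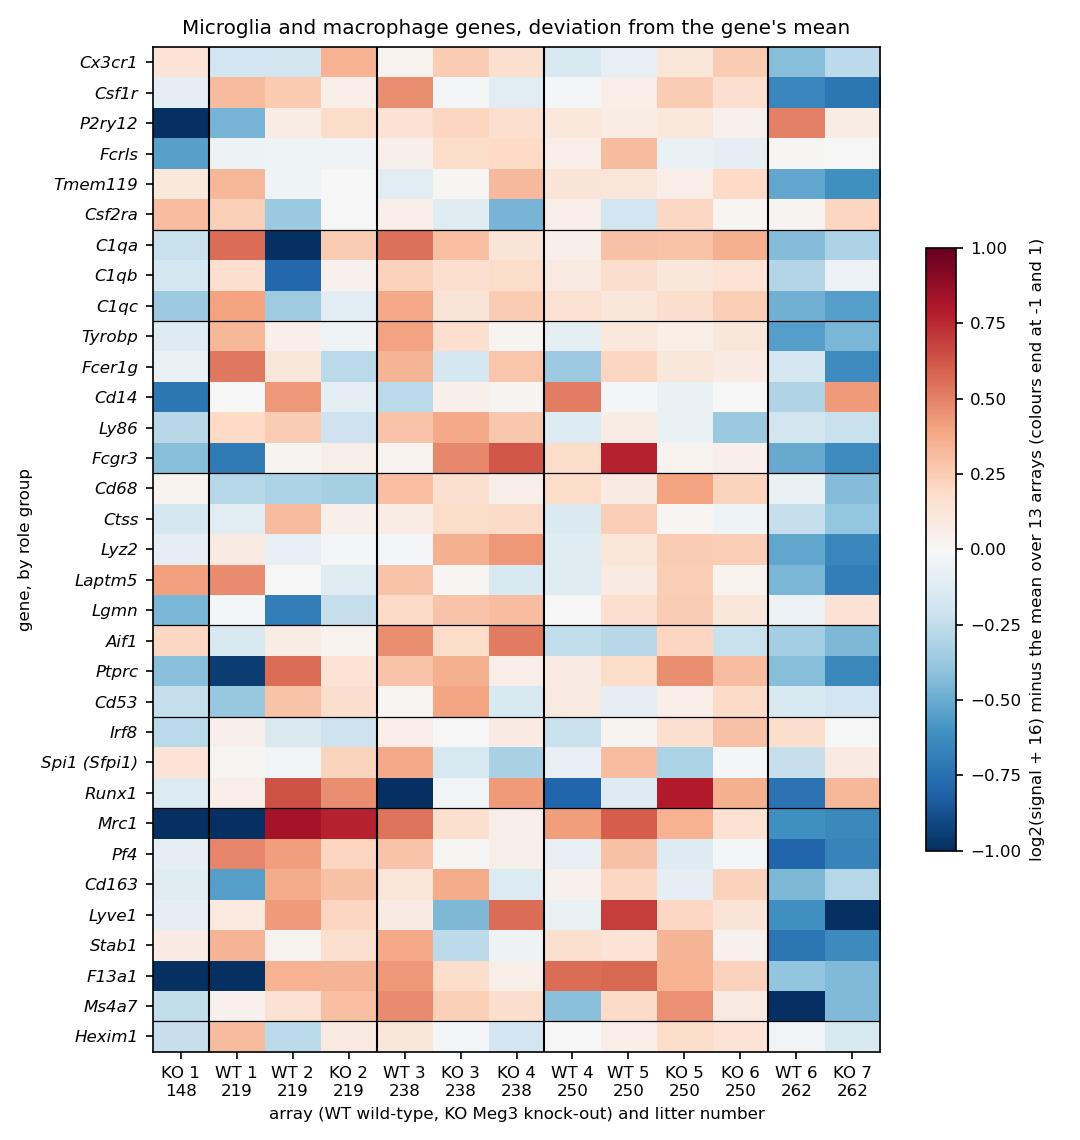
Deviation of log2(signal + 16) from each gene's mean over 13 arrays (colour, blue low and red high) for the 33 tested members (rows, by role group) on each array (columns, ordered by litter, with vertical lines between litters). Wild-type 6 and knock-out 7 of litter 262, at the right, are blue for 27 members on average, and P2ry12 is an exception.

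Markers of some other cell types moved with litter 262, and others did not. The mean deviation in its brains was -1.03 for 5 meningeal and fibroblast genes, -0.80 for 3 red cell genes, -0.67 for 3 neutrophil genes and -0.41 for 7 endothelial genes, each low in both brains. It was 0.15 for 5 neuronal genes, -0.03 for 4 oligodendrocyte lineage genes and -0.09 for 2 mast cell genes, against -0.09 over all genes tested. Choroid plexus genes did not follow the litter: their mean deviation was -0.14 in wild-type 6 and -1.18 in knock-out 7, and the lowest was -1.53 in knock-out 4 of litter 238. The 5 genes of radial glia and astrocytes differed between the brains, at 0.18 in wild-type 6 and -0.16 in knock-out 7. The summed signal of the meningeal genes Col1a1, Col1a2, Col3a1, Dcn and Lum was 4719 and 3812 in wild-type 6 and knock-out 7, the lowest of each group, and up to 15148 and 13004 in the other brains. Of neutrophil markers 4 of 7 with a probe set, namely Camp, Ltf, Elane and Mpo, were below the filter, as were the red cell genes Hba-a1 and Hbb-bh1. How far meninges, blood or vessels in the samples take part in the low values of the macrophage genes was not tested, and how the brains were dissected is not given in the sources used here.

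**Figure D4:**
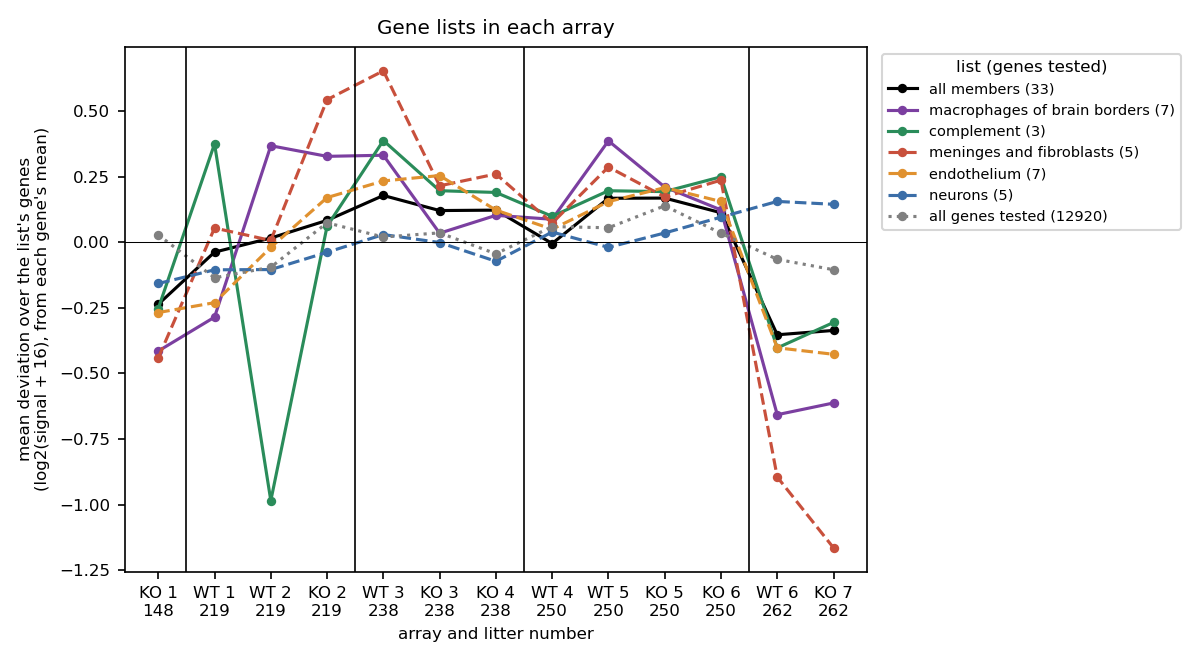
Mean deviation of log2(signal + 16) from each gene's mean (y axis) over the genes of 7 lists on each array (x axis, by litter). Members, border macrophage markers, endothelial and meningeal genes are low in both brains of litter 262 while neuronal genes are at or above their mean, and the complement line is low on wild-type 2.

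The members varied together across arrays. After subtracting the genotype means, the median Pearson correlation over the 528 pairs of tested members was 0.29, and 76.7% of pairs were positive. The median correlation of members with all other genes was 0.08, and that among all genes 0.07. These values describe 13 arrays that share litters and the scaling of each array. With the litter means removed as well the members' median was 0.04, and without litter 262 it was 0.13. Ms4a7, Lyz2, Cx3cr1, Tyrobp and Csf1r followed the mean of the other members most closely, at r of 0.88, 0.86, 0.82, 0.82 and 0.80. Spi1, Cd14 and Runx1 were at 0.06, 0.06 and 0.09, and Csf2ra was at -0.46. With litter means removed, Ms4a7 stayed at 0.78, while Lyz2, Cx3cr1, Tyrobp and Csf1r were at -0.08, 0.46, 0.22 and 0.38.

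Several pairs stood out by size, as a description. The nearest partner of Mrc1 was F13a1 at r = 0.96, that of Tyrobp was Csf1r at 0.93, and that of Stab1 was Csf1r at 0.92. Ptprc was nearest to Mrc1 at 0.91 and P2ry12 to Fcrls at 0.75. Mrc1, F13a1, P2ry12 and Fcrls share the low value on knock-out 1. Wild-type 1 was also low for Mrc1, F13a1, Ptprc and P2ry12, at 152, 289, 31.6 and 92.25, the lowest wild-type value of each. Tyrobp, Csf1r and Stab1 share the values of litter 262, whose brains lay below all others for each of them.

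Of 8 pairs chosen for a test, 7 could be measured, because Trem2 was below the filter. The Pearson and Spearman coefficients over 13 arrays were 0.97 and 0.89 for C1qa with C1qb (permutation p, adjusted over the 7 pairs, 0.00301 and 0.00753). They were 0.74 and 0.78 for C1qa with C1qc (adjusted permutation p 0.00516 and 0.00753) and 0.78 and 0.75 for C1qb with C1qc (0.00516 and 0.00852). Without the 2 arrays farthest from the median, r was 0.92, 0.81 and 0.86 for these 3 pairs, and with litter means removed it was 0.98, 0.84 and 0.82. With litter means removed the unadjusted permutation p of C1qb with C1qc was 0.0507. The permutations moved brains between litters, so a p from values with litter means removed decides nothing. Wild-type 2, of high Actb ratio and low for C1qa and C1qb, was included in the values of these 3 pairs. C1qb depended on its probe set. Its other 2 probe sets correlated with the one used at -0.14 and -0.15, and with the mean of its probe sets C1qa with C1qb gave r = 0.21. Over 29 alternatives r ranged from 0.53 to 0.91 for C1qb with C1qc and from 0.67 to 0.93 for C1qa with C1qc.

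Tyrobp with Fcer1g gave 0.74 and 0.77 (adjusted permutation p 0.00941 and 0.0101), and 0.64 without the 2 farthest arrays, wild-type 6 and knock-out 7. It did not pass without litter 262 (r = 0.66, unadjusted permutation p 0.0551). With litter means removed its r was 0.53, and the permutation p of 0.0868 decides nothing, for the reason given above. Cx3cr1 with Csf1r gave Pearson 0.83 but Spearman 0.41 (adjusted permutation p 0.00941 and 0.258). Without wild-type 6 and knock-out 7 its r was 0.25, so that relation rested on litter 262. Csf1r with Mrc1 (0.38 and 0.35) and Mrc1 with Stab1 (0.28 and 0.23) did not pass (adjusted permutation p 0.257 and 0.321, and 0.406 and 0.482). Without the 2 arrays farthest for Mrc1, wild-type 1 and knock-out 1, r for Mrc1 with Stab1 was 0.85, but it was -0.16 without litter 262 and -0.19 with litter means removed.

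**Figure D5:**
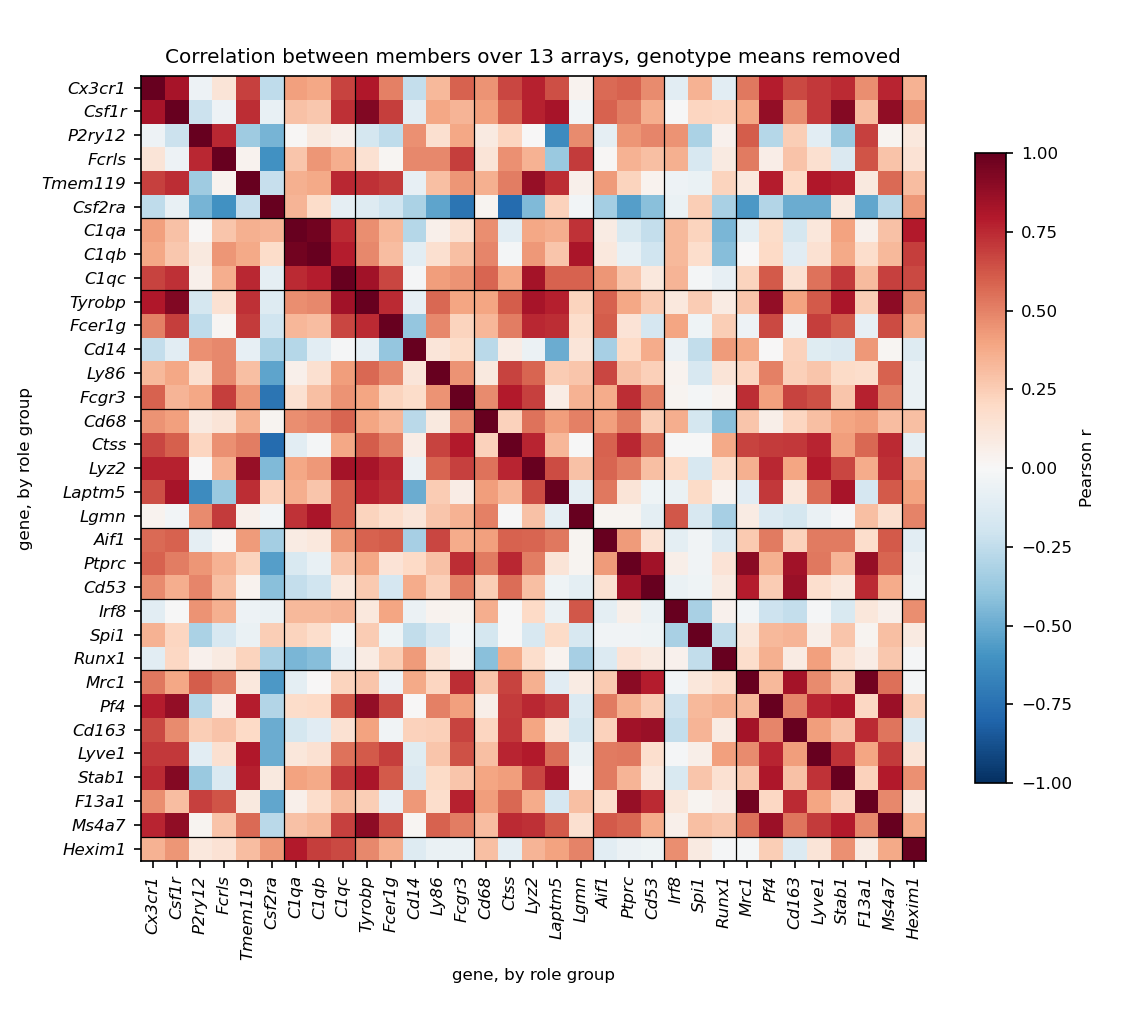
Pearson correlation (colour, from -1 to 1) between the 33 tested members over 13 arrays after subtracting genotype means, with genes ordered by role group on both axes. C1qa, C1qb and C1qc form a red block with the probe sets used, Mrc1 and F13a1 share a column pattern, and Csf2ra is blue against most members. The C1qb values depended on its probe set.

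Genes around the members were also compared between genotypes, from lists of related functions. No gene of these lists passed the adjusted limma threshold. Of 14 growth factors and ligands of microglia and their receptors, 9 were higher and 5 lower in knock-out brains. These include Csf1, Il34 and Cx3cl1, and their median log2 change was 0.05. The split was 5 and 9 after quantile normalization or median centring, and 7 and 7 with a common trimmed mean. The smallest unadjusted limma p in this list was that of the growth factor Tgfb2 (log2 change 0.19 ± 0.16 SE, p 0.252), followed by Cd200, an inhibitory ligand on neurons (0.13 ± 0.11, p 0.269). All 8 tested complement genes beyond C1q had higher means on the deposited scale, with a median of 0.10. Of these 8, 3 were higher after quantile normalization, 5 with median centring and 6 with a common trimmed mean. On the deposited scale the 8 genes were led by Cd59a, an inhibitor of the membrane attack complex (0.29 ± 0.14, unadjusted limma p 0.0660). The properdin gene Cfp followed (0.41 ± 0.27, unadjusted limma p 0.154). Over all genes 65.45% had a higher mean on that scale.

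The Tyrobp pathway had 6 higher and 4 lower of 10, with a median of 0.07, and the phosphatase Ptpn6 at 0.31 ± 0.24 (SE). The split was 2 and 8 after quantile normalization, 5 and 5 with median centring and 6 and 4 with a common trimmed mean. The lysosomal proteases and enzymes had 3 higher and 9 lower of 12, with a median of -0.02, and the cathepsin Ctsz at -0.16 ± 0.21. Genes of reactive microglia had 5 higher and 1 lower of 6 tested (4 and 2 under each of the other 3 scalings), with a median of 0.10. The galectin Lgals3 was at 0.16 ± 0.15. Of the 12 genes of that list, Gpnmb, Cst7, Itgax and Clec7a were below the filter. The interferon-induced genes had 3 higher and 4 lower of 7 (1 and 6 under each of the other 3 scalings), with a median of 0.00 (-0.18 after quantile normalization), and Ifit2 at 0.26 ± 0.22. Of 12 cytokines and chemokines 9 were below the filter, Il6, Tnf and Ccl2 among them, and Il1b gave 0.32 ± 0.19 and Ccl4 -0.29 ± 0.18. Unadjusted limma p in these 5 lists were 0.116 or above.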

How the data were processed

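Per the labels' protocols, 5 µg of total RNA per brain, purified with a kit for lipid-rich tissue, was turned into biotinylated cRNA. The deposited values are linear intensities per probe set; summary software and scaling are not given in the sources used here. The number of arrays limits the precision. Genotype came from the sample titles and litter from the embryo labels. Probe sets with several symbols or none were left out, and Sfpi1 was updated to Spi1.

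Values were turned into log2(signal + 16), which understates changes of weak genes. Those with a mean above the 40th percentile were kept, 1 per gene. Genotypes, and litters in a fit of genotype plus litter, were compared with limma 3.58.1 (lmFit, eBayes; R 4.3.3), adjusted by Benjamini-Hochberg over 12920 genes at 0.05 and tested on simulated data. Single values had exact permutation tests over 1716 splits, which ignore litter. Correlations used genotype residuals and 100000 permutations within genotype, which also ignore litter. The members and lists were chosen with earlier results of these data known. For every role group the 2 members, and for related lists up to 2 genes, with the smallest unadjusted limma p for genotype were named with values; genes of the litter result were chosen after their values were seen. Alternatives covered the pseudocount, filter, scaling, probe set choice, litter and replicate blocks, the Actb ratio and left-out arrays and litters. The embryos are labelled biological replicates.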

Additional observations from a re-analysis of the deposited data

Results flagged for a closer look

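Within each genotype group the tested members were searched for a brain whose gap to its nearest neighbour was large for the group's range (Dixon's criterion at 95%). Of 66 groups 10 held such a brain. The criterion's nominal rate is about 1 in 20, for groups independent of each other. These groups share arrays and all genes were not searched, so no excess over chance is read from the count. In knock-out 7 of litter 262 the low signals were those of Cx3cr1 (143, against 191 to 226 in the other knock-out brains), Csf1r (841, against 1295 to 1667), Tmem119 (94.0, against 152 to 195) and Pf4 (525, against 771 to 981). In wild-type 6 of the same litter they were Lyz2 (143, against 194 to 232 in the other wild-type brains) and Stab1 (127, against 226 to 291). In knock-out 1, the brain of litter 148 with an Actb ratio of 1.81, P2ry12 was low (48.3, against 138 to 158), as was Fcrls (238, against 332 to 407). In wild-type 2, whose Actb ratio was 2.92, Lgmn was low (950, against 1479 to 1767). In wild-type 5 Fcrls was high (445, against 341 to 371). The part of RNA integrity, dissection or handling in these values was not tested.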

How the results depend on the processing

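For the genotype comparison, 2 to 4 genes and 0 members passed the adjusted threshold under all 31 alternatives, and the members' median log2 change ranged from -0.15 to 0.03. The title numbers did not pair the brains: deviations of same-numbered brains correlated at -0.264 to 0.399. With them as a replicate block, 0 members passed and only C1qc (0.020), Ctss (0.011) and Laptm5 (0.029) turned sign.

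No member whose log2 change turned sign had passed the threshold, and where not stated by the setting itself the cause was not tested. Quantile normalization gave Aif1 -0.043, Cd68 -0.14, Ptprc -0.12, Fcgr3 -0.091, Tmem119 -0.15, Irf8 -0.18, Csf2ra -0.038, Cd53 -0.10, Cd163 -0.13 and Ms4a7 -0.035. Median centring gave Cd68 -0.026, Tmem119 -0.031, Irf8 -0.045 and Csf2ra -0.010, and a common trimmed mean gave them -0.017, -0.023, -0.034 and -0.0051. The Actb ratio as a covariate gave C1qa -0.042 and Irf8 -0.024. Without both arrays of high Actb ratio, C1qa was -0.035, Cd68 -0.030, P2ry12 0.058, Mrc1 0.22, Ctss 0.034, Cd14 0.071, Csf2ra -0.067 and F13a1 0.095. Litter as a block gave Cd68 -0.054, P2ry12 0.018, Mrc1 0.045 and Cd14 0.027, and the mean of the probe sets gave Hexim1 0.088. Without litter 148, P2ry12 was 0.058, Mrc1 0.071 and F13a1 0.041. Without litter 219, C1qa was -0.025, Cd68 -0.050, Ptprc -0.011, Laptm5 0.029 and Fcgr3 -0.099. Without litter 238, Fcgr3 was -0.14, Tmem119 -0.052, Spi1 0.028 and Stab1 0.0081. Without litter 250, Cd68 was -0.012, Irf8 -0.12 and Csf2ra -0.0051.

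With 1 brain left out at a time, the log2 changes that turned sign ranged from -0.091 to 0.39 for C1qa, -0.016 to 0.19 for C1qb, -0.17 to 0.020 for C1qc, -0.031 to 0.11 for Cd68, -0.099 to 0.20 for Ptprc, -0.24 to 0.058 for P2ry12, -0.41 to 0.071 for Mrc1, -0.10 to 0.011 for Ctss, -0.18 to 0.029 for Laptm5, -0.075 to 0.22 for Fcgr3, -0.072 to 0.13 for Tmem119, -0.033 to 0.060 for Irf8, -0.020 to 0.13 for Csf2ra, -0.026 to 0.16 for Cd163, -0.37 to 0.041 for F13a1 and -0.0059 to 0.29 for Ms4a7. C1qa and C1qb turned without wild-type 2, and P2ry12 and F13a1 without knock-out 1.

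For the litter term, the 8 genes called became 5 with a pseudocount of 1, 5 with no filter, 4 with the filter at the 60th percentile, 67 with quantile normalization, 20 with the mean of the probe sets, 41 with the Actb ratio as a covariate and 74 without both arrays of high ratio. Leaving out litters was chosen here after seeing the data, and gave 326 without litter 219, 0 without 250 and 2 without 262; members called were 7 without litter 219 and 0 otherwise. Without 1 brain, 1 to 84 genes and 0 to 3 members were called. The 16 members at an unadjusted p under 0.05 became 5 without litter 262, and 8 to 22 without 1 brain. The share of all genes moved too, from 12.4% to 5.02% without litter 262, and ranged from 6.43% to 24.3% without 1 brain. The median pairwise correlation was 0.367 with the filter at the 60th percentile, 0.412 with quantile normalization, 0.228 with median centring, 0.357 without both arrays of high ratio, 0.522 without litter 219, 0.128 without 262, 0.0405 with litter means removed, and 0.244 to 0.374 without 1 brain. The correlation of Mrc1 with Stab1 became -0.163 without litter 262 and -0.185 with litter means removed, which also gave Csf1r with Mrc1 -0.0847. Signals near the filter limit what Itgam, Trem2, Cyth4, Siglech and Gpr34 can show.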
